A study of Mus musculus with 20 samples.

Results

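The binding sites of Setdb1 and Kap1 in the liver of young mice were compared, peak against peak and region against region. Of the 50583 Setdb1 and 48915 Kap1 peaks called at 3 months, the 49271 Setdb1 and 47084 Kap1 peaks on chromosomes 1 to 19 were used, which are 96355 of the 175329 peaks in the 6 lists of the series. The livers came from wild-type C57BL/6 mice, with no transgene, deletion or treatment named in the labels. Chromatin was made from pieces of snap-frozen liver, so that hepatocytes and the other cells of the organ are mixed and the peaks of a cell type cannot be told apart. The Setdb1 list pooled 3 livers and the Kap1 list 2 livers of mice aged 3 months. The corresponding lists at 21 months (3 livers for Setdb1, 2 for Kap1, same strain) and the H3K14ac list at 3 months were used for reference only. Each factor therefore had 1 list per age. No spread between livers could be given and no difference was tested; the 95% intervals of shares (Wilson) and of densities (exact Poisson) cover counting error only.

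Setdb1 is a histone methyltransferase that places H3K9me3, a mark of silent chromatin. Kap1, encoded by Trim28, is a scaffold without DNA-binding specificity of its own. It is brought to DNA by zinc finger proteins that carry a KRAB domain and recruits Setdb1, and the pair is best known for silencing transposable elements and for binding the 3′ exons of zinc finger genes themselves. Both proteins also act apart from each other. The comparison asked how far the sites of the pair coincide in a differentiated tissue.

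The sequences of 6 sites show what was compared. The first 3 are Setdb1 peaks of the commonest width, 200 bp, that hold a whole Kap1 peak of the commonest width, 150 bp. Their midpoints lie closest together among such pairs at protein-coding start sites or coding exons. All sequences are the plus strand of GRCm38 (mm10), and capitals in these 3 mark the bases that the Kap1 peak covers. The first, chr6:3968439-3968638, lies upstream of the start of Tfpi2, an inhibitor of serine proteases, with its midpoint 162 bp from the start. It holds 7 CpG. The second, chr4:130053294-130053493, lies in a coding exon of Col16a1, a collagen chain, and also holds 7 CpG. The third, chr8:71584106-71584305, lies in a coding exon of Slc27a1, a fatty acid transporter, and holds 19 CpG.

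Tfpi2 shared site: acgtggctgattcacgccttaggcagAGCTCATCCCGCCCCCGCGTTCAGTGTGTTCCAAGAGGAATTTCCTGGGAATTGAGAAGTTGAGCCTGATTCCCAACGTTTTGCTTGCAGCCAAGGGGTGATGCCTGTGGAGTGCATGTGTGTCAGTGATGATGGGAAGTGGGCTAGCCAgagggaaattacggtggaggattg
Col16a1 shared site: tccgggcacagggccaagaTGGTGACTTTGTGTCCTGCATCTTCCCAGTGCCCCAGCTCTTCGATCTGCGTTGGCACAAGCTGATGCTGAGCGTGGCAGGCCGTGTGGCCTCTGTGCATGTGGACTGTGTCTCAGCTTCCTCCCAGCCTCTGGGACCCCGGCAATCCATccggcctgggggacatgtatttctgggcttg
Slc27a1 shared site: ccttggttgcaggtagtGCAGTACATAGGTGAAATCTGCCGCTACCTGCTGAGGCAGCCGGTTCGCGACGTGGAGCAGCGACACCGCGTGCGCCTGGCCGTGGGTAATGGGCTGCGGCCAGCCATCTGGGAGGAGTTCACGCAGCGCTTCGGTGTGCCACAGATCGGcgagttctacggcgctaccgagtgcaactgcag

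The other 3 are sites that 1 factor does not share with the other. Kap1 peaks were found in the last coding exon of Zfp804b (chr5:6770315-6770464) and of Zfp943 (chr17:21992386-21992535), the zinc finger genes with the most Kap1 peaks among those with a peak in that exon. The nearest Setdb1 peak was 5051 bp from the first and 34764 bp from the second. Capitals mark the single CpG of each. The last site is the Setdb1 peak farthest from any Kap1 peak in the 1 Mb bin with the most Setdb1 peaks (chr19:13338662-13338861). It lies 104608 bp from Kap1, ends just upstream of the start of the olfactory receptor gene Olfr1466, and has 0 CpG and a GC content of 33.5%, so that it carries no capitals.

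Zfp804b Kap1 site: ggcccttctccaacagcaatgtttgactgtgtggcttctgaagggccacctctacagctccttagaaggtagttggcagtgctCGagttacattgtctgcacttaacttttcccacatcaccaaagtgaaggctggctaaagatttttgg
Zfp943 Kap1 site: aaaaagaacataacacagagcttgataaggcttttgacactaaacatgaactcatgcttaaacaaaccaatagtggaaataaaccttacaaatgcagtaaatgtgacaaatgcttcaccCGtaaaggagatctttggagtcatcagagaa
Olfr1466 Setdb1 site: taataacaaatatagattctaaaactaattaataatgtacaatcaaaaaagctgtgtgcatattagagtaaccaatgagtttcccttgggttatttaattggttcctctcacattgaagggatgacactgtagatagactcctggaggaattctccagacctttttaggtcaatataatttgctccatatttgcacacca

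Before the results, 1 feature of the lists has to be named. Chromosome 19 stood apart in the young Setdb1 list, with 32.8 peaks per Mb of called sequence, where the other 18 chromosomes had between 14.9 and 22.2. This is 1.58 times the median of the others. The ratio was 1.03 in the young Kap1 list and 1.02 in the old Setdb1 list. Why that chromosome differs was not tested.

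Mean densities of the pair were close, with 20.6 Setdb1 and 19.7 Kap1 peaks per Mb over 2395.9 Mb, but the peaks were spread over the genome in different ways. Setdb1 was less concentrated in few bins than Kap1. In 2403 bins of 1 Mb with at least 500 kb of called sequence, Setdb1 had a median of 20 peaks per Mb (SD 8.19 over bins, highest 56), and 6 bins had 0. Kap1 had a median of 11 per Mb (SD 31.8, highest 367), and 135 bins had 0. The variance over bins divided by the mean was 3.26 for Setdb1 and 51.3 for Kap1. The 240 densest bins of each factor held 17.5% of the binned Setdb1 peaks and 45.2% of the binned Kap1 peaks. The 24 densest held 2.22% and 9.87%.

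The same contrast was seen in the spacing within each list. A Setdb1 peak lay at a median of 14993 bp from the next Setdb1 peak, and 4.83% of Setdb1 peaks had another within 1000 bp. A Kap1 peak lay at a median of 6818 bp from the next Kap1 peak, and 18.6% had another within 1000 bp. Clusters of Kap1 peaks were thus common and clusters of Setdb1 peaks were not. Wide peaks followed the same order, with 39 Setdb1 and 393 Kap1 peaks over 1000 bp.

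Across bins, densities of the pair were weakly correlated, with Pearson's r of 0.23 and Spearman's rho of 0.29 over 2403 bins. The bins are neighbours on the same chromosomes and share base composition and mappability, so these values are a description. Within single chromosomes rho was between 0.12 (chromosome 12) and 0.51 (chromosome 17), with a median of 0.28, and it was above 0 in 19 of 19 chromosomes. When GC content, soft-masked share (the repeats marked in the reference) and the number of genes per Mb were removed from the ranks, rho was 0.16. At 21 months the 2 factors gave rho of 0.30. Setdb1 at 3 months against Setdb1 at 21 months gave rho of 0.30 and r of 0.33, and Kap1 against Kap1 gave rho of 0.46 and r of 0.90. The value of r, unlike that of rho, gives most weight to very dense bins. The old Setdb1 list is the shorter, 13678 peaks against 21390 for old Kap1, and fewer peaks per bin lower a correlation, so the 2 factors are not compared in this.

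Kap1 density followed the soft-masked share of the bin more closely (rho of 0.57) than Setdb1 density did (rho of 0.32). In the 601 bins with the least soft-masked sequence, the median was 5 Kap1 and 17 Setdb1 peaks per Mb. In the 601 with the most, it was 26 and 23. This relation is one of bins, and the peaks themselves held less soft-masked sequence than the genome. In their central 150 bp it made up 29.5% for Kap1 and 24.98% for Setdb1, against 33.5% in all 150 bp tiles of the genome. Reads without a unique place had been discarded, which limits the peaks that can be called in repeats. Both factors were denser in bins of low GC content, with rho of -0.34 for Kap1 and -0.33 for Setdb1. H3K14ac density was related to Kap1 (r of 0.74, rho of 0.33) and hardly to Setdb1 (r of 0.11, rho of 0.11).

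**Figure D1:**
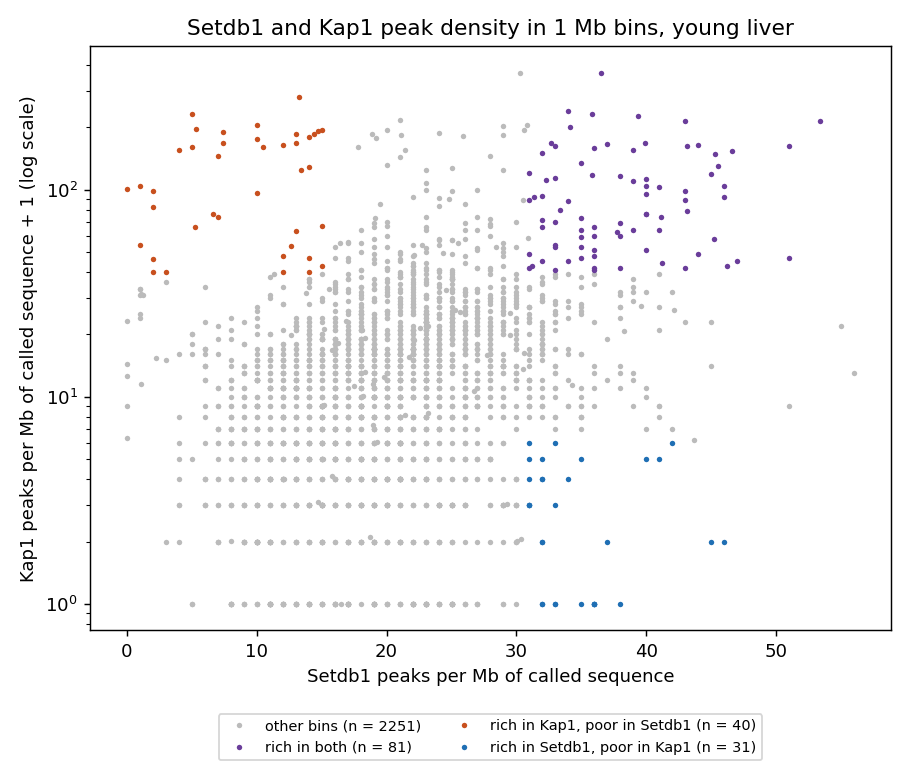
Each point is 1 of 2403 bins of 1 Mb in young liver, with Setdb1 peaks per Mb on the x axis and Kap1 peaks per Mb plus 1 on a log y axis. Colours mark the 40 bins rich in Kap1 and poor in Setdb1, the 31 bins rich in Setdb1 and poor in Kap1, and the 81 bins rich in both. Setdb1 ends at 56 per Mb and Kap1 at 367.

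By chromosome, Kap1 was densest on chromosome 7, with 34.1 peaks per Mb and 1.72 Kap1 peaks for each Setdb1 peak. Chromosome 7 carries large clusters of zinc finger, vomeronasal and olfactory receptor genes. Chromosome 17 followed in this ratio with 1.29 and chromosome 4 with 1.24. Chromosome 19 had the lowest ratio, 0.63, at an ordinary Kap1 density of 20.7 per Mb. Chromosome 11 was the poorest in both factors, with 14.9 Setdb1 and 9.44 Kap1 peaks per Mb, and its ratio was also 0.63. At 21 months chromosome 7 was again densest in Kap1, at 15.02 per Mb, and chromosome 11 poorest, at 3.44, while chromosome 19 did not stand out in Setdb1.

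**Figure D2:**
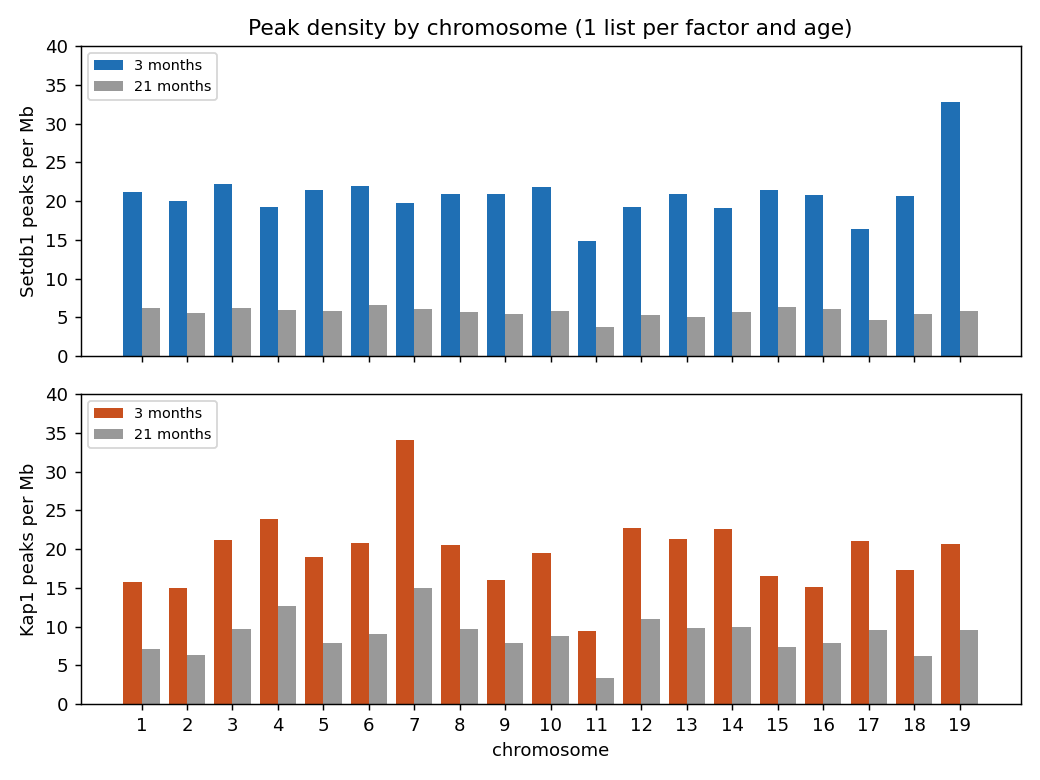
Bars give peaks per Mb of called sequence for each of chromosomes 1 to 19, Setdb1 above and Kap1 below, at 3 months (coloured) and 21 months (grey), 1 list each and without error bars. Setdb1 at 3 months reaches 32.8 on chromosome 19 and Kap1 34.1 on chromosome 7.

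Regions rich in 1 factor and poor in the other were taken as bins in the top 10% of 1 list and the lowest 25% of the other. These limits were at least 39 Kap1 with at most 15 Setdb1 peaks per Mb, or at least 31 Setdb1 with at most 5 Kap1 peaks per Mb. There were 40 bins rich in Kap1 and poor in Setdb1, 1.66% of all bins. There were 31 bins rich in Setdb1 and poor in Kap1, 1.29% of all bins. Another 81 bins were rich in both. These shares follow from the limits and from the weak correlation and were not tested.

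The 40 Kap1-rich bins had medians of 113 Kap1 and 10 Setdb1 peaks per Mb. Kap1 was also dense there at 21 months, with a median of 57.3 against 4 over all bins. H3K14ac had a median of 35 per Mb against 4.03. Uncalled bases were found in 35% of these bins, in 26.0% of all 242 bins rich in Kap1 and in 6.24% of all bins, and 28.3% of their Kap1 peaks had a near-identical second copy elsewhere in the genome, against 5.85% of all binned Kap1 peaks. With the limits set anew over fully called bins only, 32 bins were rich in Kap1 and poor in Setdb1, and without peaks that have a second copy 39 were. Of the 40 bins, 9 were on chromosome 7 and 0 on chromosome 19.

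Of 28 gene families, 8 had a larger share of their genes in these bins than the 1.99% of all protein-coding genes, 1 had a smaller share and 19 had 0 genes there. The bins held 32 of the 64 defensin genes (50%), which encode antimicrobial peptides. They held 8 of 22 major urinary protein genes (36.4%), pheromone carriers made by the liver, and 15 of 119 V2R vomeronasal receptor genes (12.6%). They held 21 of 416 zinc finger genes (5.05%), 40 of 1128 olfactory receptor genes (3.55%), 5 of 208 V1R genes (2.40%), 2 of 10 Speer genes and 1 of 41 imprinted genes (2.44%). The shares of V1R and imprinted genes are close to that of all genes. Other clustered families had none there, among them the 57 protocadherin, 100 cytochrome P450, 60 serpin and 110 keratin genes. Since members of a cluster lie side by side, they are few independent places.

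Among the bins rich in Kap1 and poor in Setdb1, the 5 with the largest excess of Kap1 were examined. The first, chr5:15000001-16000000, had 168 Kap1 and 8 Setdb1 peaks in 605000 called bases. It reaches into Cacna2d1, a calcium channel subunit, which over its whole body held 43 Kap1 and 12 Setdb1 peaks. The adjoining bins chr12:18000001-19000000 and chr12:19000001-20000000 had 204 and 231 Kap1 peaks and 10 and 5 Setdb1 peaks. They hold 1 protein-coding gene each, and 117 and 135 of their Kap1 peaks had a second copy. The bin chr8:20000001-21000000, which holds 1 defensin gene, had 146 Kap1 and 4 Setdb1 peaks. Its short genes Gm15056 and Gm6040 held 4 Kap1 peaks each and 0 Setdb1 peaks.

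The bin chr7:38000001-39000000 had 179 Kap1 and 7 Setdb1 peaks, and 30 of the 179 had a second copy. Ccne1, the cyclin E1 gene that drives entry into S phase, held 5 Kap1 and 0 Setdb1 peaks in its body. The neighbouring Uri1, which encodes a prefoldin-like protein, held 4 Kap1 peaks and 1 Setdb1 peak.

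The 31 bins rich in Setdb1 and poor in Kap1 were of a different kind. Their medians were 33 Setdb1 and 2 Kap1 peaks per Mb. None held uncalled bases, 0% of their peaks had a second copy, and the median GC content (41.5%), soft-masked share (30.03%) and gene density (5 per Mb) were close to those of all bins (41.7%, 31.8% and 5.01 per Mb). They held 194 of 20807 protein-coding genes, 0.93%. Of the 28 families, 2 of 23 cadherin genes (8.70%) and 3 of 84 liver metabolism genes (3.57%) lay there, counts too few to compare, and 1 of 100 cytochrome P450 genes, which is the share of all genes. Olfactory receptors had 0 of 1128 genes there and zinc finger genes 2 of 416 (0.48%). For smaller families a count of 0 is near what the share of all genes would give. At 21 months their Setdb1 median was 4 per Mb, against 5 over all bins, so that the excess of these 31 bins was not seen in the old list. They had been picked for extreme values in the young lists. Over all 264 bins rich in Setdb1 the old Setdb1 median was 7 per Mb, and over the 81 bins rich in both it was 10.5.

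Among the bins rich in Setdb1 and poor in Kap1, the 5 with the largest excess of Setdb1 were examined. All but chr5:98000001-99000000 lay on chromosome 19, and so did 30 of the 264 Setdb1-rich bins. In chr19:31000001-32000000, with 46 Setdb1 peaks and 1 Kap1 peak, most of the sequence belongs to Prkg1, a cGMP-dependent protein kinase. The whole of Prkg1 held 49 Setdb1 peaks and 1 Kap1 peak, whereas Asah2, a ceramidase gene at the edge of this bin, held 2 of each. In the bin on chromosome 5, with 45 Setdb1 peaks and 1 Kap1 peak, Cfap299, a gene of cilia and flagella, held 24 Setdb1 and 0 Kap1 peaks. Fgf5, a growth factor gene, held 3 and 0.

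The bin chr19:46000001-47000000 was gene-rich, with 24 protein-coding genes, 38 Setdb1 peaks and 0 Kap1 peaks. Gbf1, a factor of Golgi transport, held 7 Setdb1 peaks, and the magnesium transport gene Cnnm2 held 6. The bins chr19:25000001-26000000 and chr19:36000001-37000000 had 42 and 41 Setdb1 peaks against 5 and 4 Kap1 peaks. They include Kank1, a regulator of the cytoskeleton, with 6 Setdb1 and 0 Kap1 peaks, and Pcgf5, a Polycomb ring finger gene, with 5 and 0. Dmrt1, a regulator of male sex determination, held 6 Setdb1 peaks and 1 Kap1 peak, and Btaf1, which acts on the TATA-binding protein, held 4 and 0. Dock8, a guanine nucleotide exchange factor of immune cells, and Htr7, a serotonin receptor gene, held 6 Setdb1 and 2 Kap1 peaks each. Without chromosome 19, with the limits set anew, 40 bins were rich in Kap1 and poor in Setdb1 and 26 the reverse.

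The 81 bins rich in both had medians of 37 Setdb1 and 78.9 Kap1 peaks per Mb. They held 48 of 208 V1R genes (23.1%), 26 of 119 V2R genes (21.8%), 161 of 1128 olfactory receptor genes (14.3%), 35 of 416 zinc finger genes (8.41%), 6 of 15 Pramel genes (40%), 12 of 60 serpin genes (20%), 12 of 64 defensin genes (18.75%), 18 of 100 cytochrome P450 genes (18%) and 10 of 64 phase II genes (15.6%), against 4.74% of all protein-coding genes. Of the 28 families, 12 had a larger share there than all genes and 10 had 0 genes. Uncalled bases were found in 30.9% of these bins.

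Feature classes were assigned by the midpoint of each peak, first to start sites (within 1 kb of an annotated start), then to coding exons, other exons, introns and the space between genes. Start sites took 4.004% of Setdb1 peaks (95% interval 3.83 to 4.18) and 6.42% of Kap1 peaks (6.20 to 6.64), and hold 4.47% of called bases. Setdb1 was therefore below and Kap1 above the genome share, by 0.90 and 1.44 times. Coding exons took 1.37% of Setdb1 peaks (1.27 to 1.48) and 2.23% of Kap1 peaks (2.10 to 2.37), at 1.19% of called bases. Both factors exceeded the genome there, Setdb1 by 1.15 and Kap1 by 1.87 times. Called bases include sequence where reads have no unique place. The genome shares were not corrected for this, which matters most for a ratio as near 1 as that of Setdb1.

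Introns showed the opposite order. They took 40.5% of Setdb1 and 33.1% of Kap1 peaks, at 42.3% of called bases. Between genes lay 52.3% of Setdb1 and 56.1% of Kap1 peaks, at 50.1% of bases. The lists at 21 months had the same order in every class, with 4.09% of Setdb1 and 5.95% of Kap1 peaks at start sites.

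**Figure D3:**
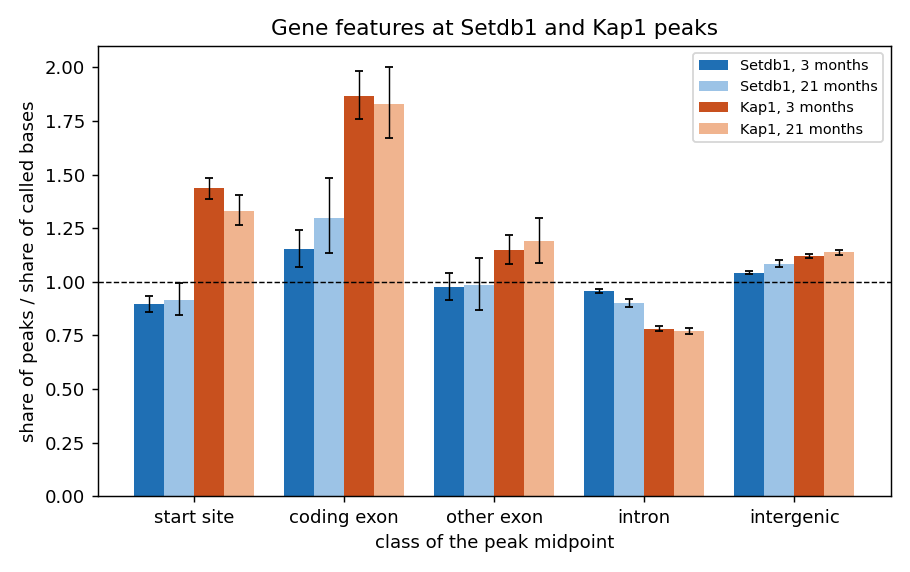
Bars give the share of peaks in each class divided by the class's share of called bases, for Setdb1 and Kap1 at 3 and 21 months, with 95% intervals by Wilson's method for counting error alone. The dashed line at 1 is the genome share. At 3 months Kap1 stands at 1.44 for start sites and 1.87 for coding exons, Setdb1 at 0.90 and 1.15.

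Kap1 was denser still in the last coding exon of protein-coding genes, the exon that encodes the finger array in most zinc finger genes. Over all genes, last coding exons had 53.1 Kap1 peaks per Mb (95% interval 48.1 to 58.5), 2.70 times the autosomal mean, and 27.3 Setdb1 peaks per Mb (23.7 to 31.2), 1.33 times. In last coding exons of zinc finger genes Kap1 had 28 peaks, 59.2 per Mb (39.3 to 85.6) or 3.01 times its mean. Setdb1 had 12 peaks there, 25.4 per Mb (13.1 to 44.3) or 1.23 times. This Kap1 interval spans the value for all genes, so a difference between the last exons of zinc finger and other genes was not detectable at these counts. Over all coding exons, zinc finger genes had 46 Kap1 peaks, 57.0 per Mb (41.8 to 76.1), above the 39.3 (37.3 to 41.5) of all genes, and the intervals did not overlap. Last exons made up 0.473 of the 0.807 Mb of coding sequence in zinc finger genes and 7.67 of 34.3 Mb in all genes. The old lists gave 3.55 times for Kap1 (15 peaks) and 1.48 times for Setdb1 (4 peaks). The exons of Zfp804b and Zfp943 shown above are of this set. The set was taken by symbol, and whether these exons encode finger arrays was not checked. Zfp804b and Zfp943 held 15 and 12 Kap1 peaks in all, counts for which they were selected and which were not set against gene length.

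The sequence under the peaks differed in the same direction. The central 150 bp of Kap1 peaks had a mean GC content of 47.0%, those of Setdb1 peaks 44.2%, and all 15972365 tiles of that length 41.9%. At least 5 CpG were found in 6.24% of Kap1, 3.50% of Setdb1 and 3.93% of all windows. The letters TGCCGC, the binding motif of the zinc finger protein Zfp57 that recruits Kap1, were found on either strand in 1.75% of Kap1 and 1.04% of Setdb1 windows, against 0.929% of all tiles. The letters ATTGAT, the core of the motif of the liver factor Hnf6, were found in 6.55% and 7.11%, against 7.85%. A match to these letters is a description of the window and shows no binding. The letters TGCCGC are rich in GC and ATTGAT poor, and the tiles were not matched for GC content. These differences therefore cannot be told apart from base composition.

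Gene types also set the pair apart. Pseudogenes, which are inactive copies of genes, were dense in Kap1. Processed pseudogenes had 52.9 Kap1 and 26.0 Setdb1 peaks per Mb, and unprocessed ones 45.1 and 18.8. Protein-coding genes had 16.0 Kap1 and 19.5 Setdb1 peaks per Mb, and long intergenic RNA genes 19.001 and 20.9. The variable segments of immunoglobulin genes had 19 Kap1 and 3 Setdb1 peaks, or 172 and 27.2 per Mb. In all, 35.1% of 20807 protein-coding genes held a Setdb1 peak, 27.5% a Kap1 peak and 16.5% both. A longer gene has more bases to hold a peak.

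Densities in the bodies of 28 gene families were set against the autosomal mean of the same list. Over all protein-coding genes this ratio was 0.95 for Setdb1 and 0.81 for Kap1. The families densest in Kap1 were, in order, defensins, V1R receptors, Pramel genes, clustered protocadherins, V2R receptors and serpins. Those densest in Setdb1 were Pramel genes, V1R receptors, Skint genes, histones, olfactory receptors and V2R receptors. Pramel genes held 5 Setdb1 peaks, 44.96 per Mb (14.6 to 105), and 8 Kap1 peaks, 71.9 per Mb (31.1 to 142). Pramel genes and histones stand in the Setdb1 order on 5 and 3 peaks, with intervals that include the mean, as does that of Skint genes (20.39 to 37.95 per Mb; 43 peaks).

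The 3 families of chemosensory receptors were denser in Kap1 than in Setdb1 at 3 months. V1R genes, receptors of the vomeronasal organ, had 92.2 Kap1 peaks per Mb (77.7 to 109; 142 peaks), 4.69 times the mean, and 40.9 Setdb1 peaks per Mb (31.4 to 52.4; 63 peaks), 1.99 times. A Setdb1 peak was found in 46 and a Kap1 peak in 57 of the 208 V1R genes, and both in 24. These were 22.1%, 27.4% and 11.5% of them, against 35.1%, 27.5% and 16.5% of all protein-coding genes, whose median body of 17.6 kb is longer than the 6.80 kb of V1R genes. At 21 months the Kap1 ratio was 4.58 and the Setdb1 ratio 1.02. V2R genes had 2.74 times the mean for Kap1 and 1.24 times for Setdb1, and olfactory receptor genes 2.17 and 1.25 times. The Setdb1 interval of V2R genes (20.54 to 31.2 per Mb) reached the mean of 20.56 per Mb. The intervals of the pair did not overlap in these 3 families. At 21 months V2R genes had 3.65 times the mean for Kap1 and 1.44 times for Setdb1, whereas olfactory receptor genes had 1.88 and 1.93 times. Without chromosome 19 the young olfactory receptor ratios were 2.20 for Kap1 and 1.22 for Setdb1.

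Defensin, serpin and protocadherin genes were denser in Kap1 than in Setdb1 at 3 months. Defensin genes had 33 Kap1 peaks, 152 per Mb (104 to 213) or 7.72 times the mean, and 4 Setdb1 peaks, 18.4 per Mb (5.01 to 47.1) or 0.89 times. At 21 months the ratios were 7.73 and 0.81. In bins, 12 of the 64 defensin genes and 12 of the 60 serpin genes lay where both factors were rich. Serpin genes, which encode protease inhibitors that liver secretes in quantity, had 66 Kap1 and 22 Setdb1 peaks, 2.73 and 0.87 times the means, and 1.55 and 0.71 times at 21 months. MHC genes had 9 and 4 peaks, 2.24 and 0.95 times, and the order was the reverse at 21 months, 0.55 and 2.57 times, on 1 Kap1 and 3 Setdb1 peaks. Clustered protocadherins, cell-surface proteins of neurons whose genes share 1 locus, had 33 Kap1 and 12 Setdb1 peaks, 3.17 and 1.10 times the means. At 21 months the order was the reverse, with 3 Kap1 and 6 Setdb1 peaks, 0.63 and 1.98 times.

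Zinc finger genes (416 by symbol), the class that includes the KRAB proteins that recruit Kap1, had 433 Kap1 peaks, 33.6 per Mb (30.5 to 36.9) or 1.71 times the mean. Setdb1 stood at its own mean with 259 peaks, 20.1 per Mb (17.7 to 22.7) or 0.98 times. Of these, 141 (33.9%) held a Kap1 peak, 141 a Setdb1 peak and 63 (15.1%) both. The shares with Setdb1 and with both were close to those of all protein-coding genes, 35.1% and 16.5%, and the share with Kap1 was above 27.5%. At 21 months the ratios were 2.29 and 0.98.

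Families of liver function gave a mixed picture. Cytochrome P450 genes, which oxidise drugs and steroids, had 1.49 times the mean for Kap1 (78 peaks) and 1.17 times for Setdb1 (64 peaks). The Setdb1 interval, 18.5 to 30.7 per Mb, includes the mean. Without chromosome 19, which carries the Cyp2c genes and was itself dense in young Setdb1, the ratios were 0.998 and 0.87. Phase II conjugation genes had 2.24 and 1.07 times. Major urinary protein genes had 4 Kap1 peaks and 1 Setdb1 peak, too few to compare. Nuclear receptor genes had 6 Kap1 peaks, 4.59 per Mb (1.68 to 9.98) or 0.23 times the mean. They had 18 Setdb1 peaks, 13.8 per Mb (8.15 to 21.7) or 0.67 times, an interval that includes the Setdb1 mean.

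Some families of neuronal and transport genes had Kap1 below Setdb1, as all protein-coding genes do (0.81 and 0.95), so that this order is not particular to them. Glutamate and GABA receptor genes had 1.14 times the mean for Setdb1 (271 peaks) and 0.77 times for Kap1 (175 peaks). Potassium channel genes had 1.13 and 0.83 times, solute carriers 1.03 and 0.76 times, and cadherins 0.99 and 0.73 times. Skint genes, which shape T cells of the skin, had 1.37 times for Setdb1 and 1.00 times for Kap1. Histone genes held 3 Setdb1 and 0 Kap1 peaks in 0.111 Mb, too little to tell apart.

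**Figure D4:**
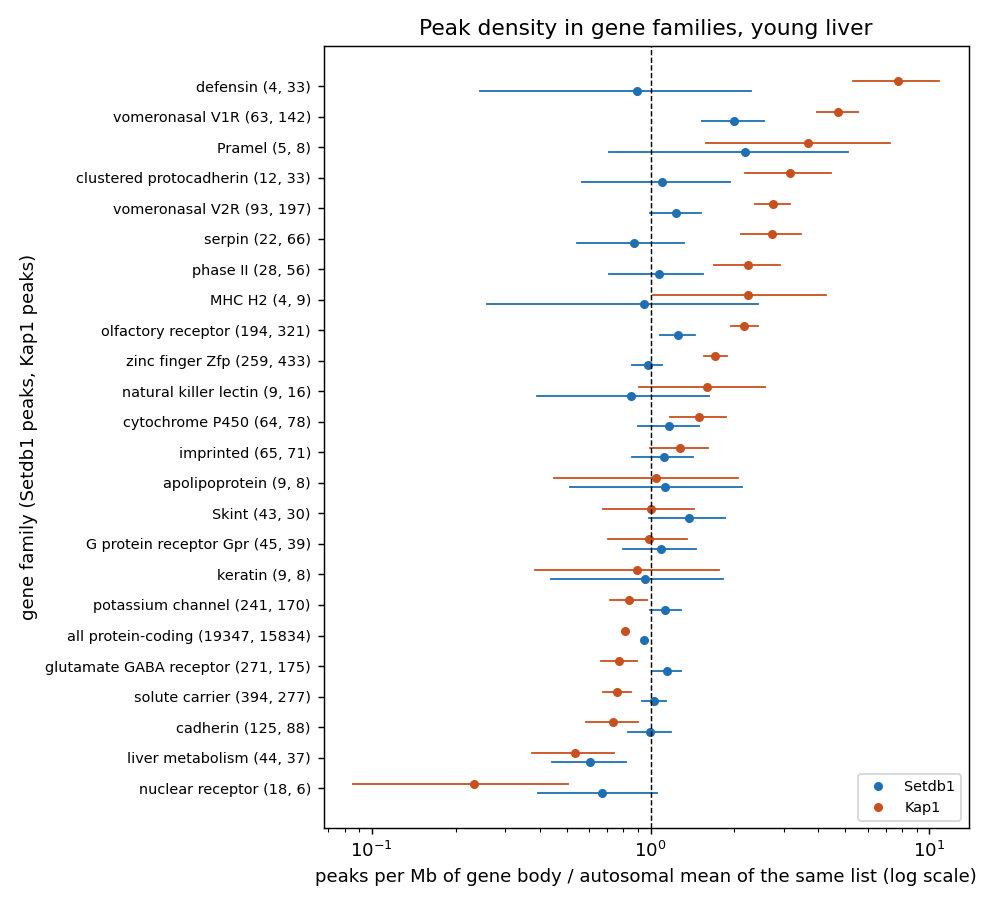
Points give peaks per Mb of gene body divided by the autosomal mean of the same list on a log axis, Setdb1 in blue and Kap1 in orange, for families with at least 10 peaks, with exact Poisson 95% intervals that cover counting error only. Numbers in brackets are the Setdb1 and Kap1 peaks. Kap1 extends from 0.23 in nuclear receptor genes to 7.72 in defensins, while no Setdb1 value exceeds 2.19.

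Among single genes of at least 5 kb with at least 5 peaks, the densest were taken for each factor. The 8 densest in Kap1, of 827 genes, had between 7.72 and 8.62 Kap1 peaks per 10 kb, and the 8 densest in Setdb1, of 956 genes, between 1.29 and 1.76 Setdb1 peaks per 10 kb. The strongest single genes of Kap1 were thus several times denser than any of Setdb1.

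The Kap1 set began with 2010315B03Rik on chromosome 9, which held 18 Kap1 and 2 Setdb1 peaks. Noc2l and Samd11 adjoin on chromosome 4 and held 9 and 7 Kap1 peaks, with 0 and 1 Setdb1 peaks. Noc2l encodes an inhibitor of histone acetyltransferases, and its 11 Kap1 peaks at 21 months were the most in the set in the old list. Cacng6, a calcium channel subunit gene, and Fiz1, a zinc finger gene, both near the start of chromosome 7, held 9 and 6 Kap1 and 0 Setdb1 peaks. Diras1, a small GTPase gene, held 5 Kap1 peaks at 3 months and 0 at 21 months. Smok2a, a kinase gene of sperm, held 5 Kap1 peaks and Ifit1bl1, an interferon-induced gene, 7, of which 1 each had a second copy.

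All 8 genes densest in Setdb1 held Kap1 as well, as did 46.9% of the 7312 protein-coding genes with a Setdb1 peak. These 8 are bodies of 33.4 to 62.2 kb, and 3 of them lie side by side on chromosome 9. Lig1, the DNA ligase of replication, held 6 Setdb1 and 5 Kap1 peaks, and 3 of each at 21 months. Fbxo41, an F-box gene, held 5 Setdb1 and 6 Kap1 peaks. Cyp2c29, a cytochrome P450 gene on chromosome 19, held 8 and 5. Nt5e, which encodes the ectoenzyme CD73 that makes adenosine, held 6 Setdb1 and 14 Kap1 peaks, and its neighbour Snx14, a sorting nexin, held 8 and 17. Snx14 overlaps Gm20537, which was also in the set, so that these share peaks. Agtr1b, an angiotensin receptor gene, had the largest surplus of Setdb1, with 7 Setdb1 peaks and 1 Kap1 peak.

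The Setdb1 gene held 1 Setdb1 and 0 Kap1 peaks, and Trim28 held 0 of each. At the mean densities, bodies of 33.7 and 31.9 kb such as these would hold less than 1 peak of either factor, so these counts show no difference. In a list of 84 genes of liver metabolism and its regulators, 19 held a Setdb1 peak, 16 a Kap1 peak and 5 both, or 22.6%, 19.05% and 5.95%, below the 35.1%, 27.5% and 16.5% of all genes. Densities were 0.61 and 0.54 times the means. The 5 with both were Ghr, the growth hormone receptor gene, with 10 Setdb1 and 9 Kap1 peaks, Insr, the insulin receptor gene, with 4 and 5, Cpt1a on chromosome 19, the carnitine transferase that admits fatty acids to mitochondria, with 4 and 4, the lipid-sensing receptor gene Ppara with 2 and 1, and the sterol transporter gene Abcg5 with 1 and 1. Ghr and Insr are long genes of 266 and 158 kb. Ppargc1a, a coactivator of gluconeogenesis, held 4 Setdb1 and 0 Kap1 peaks, and Hdac3, a histone deacetylase gene, held 4 Kap1 and 0 Setdb1 peaks.

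The distance from each Setdb1 peak to the nearest Kap1 peak had a median of 25541 bp, with 10% of peaks within 1803 bp and 90% within 187356 bp. On autosomes 1027 Setdb1 peaks shared a base with Kap1, 2.08% (1.96 to 2.21). Within 1000 bp of Kap1 were 6.85%, within 10000 bp 29.6% and within 100000 bp 80.9%. In the other direction, a Kap1 peak lay at a median of 13016 bp from Setdb1, and 2.19% shared a base.

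These shares were set against the share of called bases that lie as close to Kap1. Of all bases 0.761% were placed so that a 200 bp peak centred on them would touch Kap1, and 0.855% when bases were weighted by the number of Setdb1 peaks in their bin. The share of Setdb1 peaks, taken over all widths, was 2.44 times this weighted value. Of the peaks of 200 bp alone 1.63% shared a base, so the 1365 of other widths raise this ratio. The ratios by chromosome and by set of bins given below also take peaks of all widths against bases for a 200 bp peak. Within 1000 bp the ratio was 1.43, within 10000 bp 1.10 and within 100000 bp 1.01. The ratio falls with distance in part by construction, since 79.8% of weighted bases already lay within 100000 bp of Kap1.

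The distances between midpoints gave the same result at finer scale. Pairs of Setdb1 and Kap1 peaks numbered 1010 at 0 to 200 bp, and between 542 and 626 in each of the 14 further classes of 200 bp up to 3000 bp, with a median of 582.5. The first class was 1.73 times this median, and the second, with 626 pairs, 1.07 times. With peaks of the commonest widths alone the first class held 741 pairs, 1.59 times the median of the others. Without second copies it held 923, 1.68 times. At 21 months there were 236 pairs in the first class, 2.48 times the median of 95. Up to 3000 bp, the excess of pairs therefore lay in the class no wider than a peak, with 1010 pairs over a level of 582.5.

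**Figure D5:**
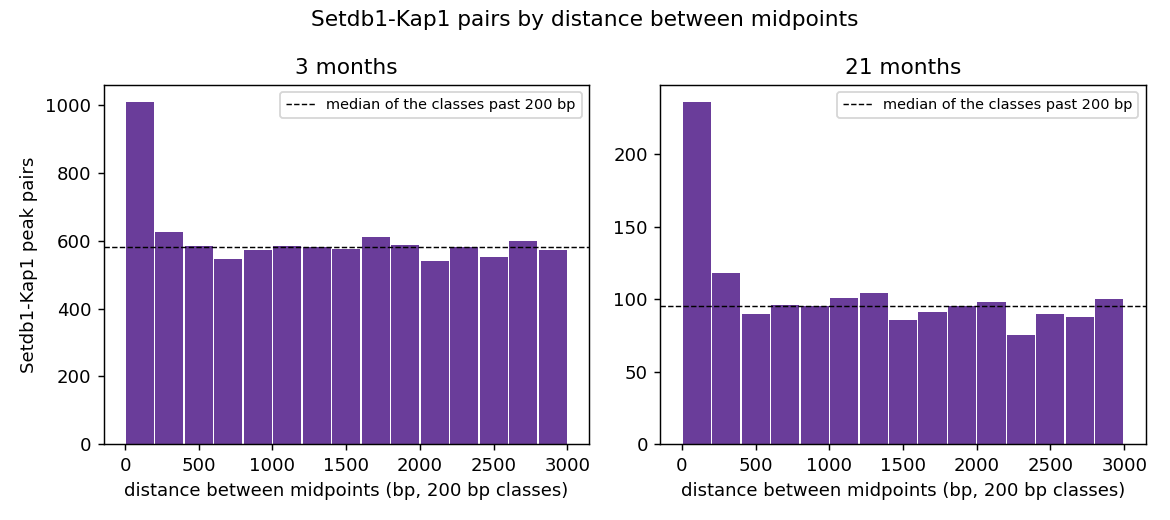
Bars count pairs of Setdb1 and Kap1 peaks by the distance between their midpoints, in classes of 200 bp up to 3000 bp, at 3 months (left) and 21 months (right), 1 list per factor and age. The dashed line is the median of the classes past 200 bp, 582.5 and 95 pairs. The first class holds 1010 and 236 pairs.

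The shared sites were unevenly placed. At start sites 89 of 1973 Setdb1 peaks shared a base with Kap1, 4.51% (3.68 to 5.52), against 1.53% (1.37 to 1.71) in introns and 2.25% (2.07 to 2.44) between genes. By chromosome the share was highest on chromosome 4, 3.65% (3.03 to 4.39), and chromosome 7, 3.24% (2.65 to 3.96), and lowest on chromosome 11, 0.73% (0.43 to 1.25). These are also the chromosomes densest and poorest in Kap1, and start sites held 1.44 times the Kap1 peaks that their bases would give, so that more bases touch Kap1 there. Relative to the weighted share of such bases, in whole bins, the shared sites were 2.91 times as many on chromosome 4, 2.28 times on chromosome 7 and 1.99 times on chromosome 11, within the range of 1.92 (chromosome 19) to 3.33 (chromosome 12) over all 19. The share by class was not set against bases.

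In bins rich in both, 276 of 2975 Setdb1 peaks were shared, 9.28% (8.29 to 10.4), where the weighted share of bases touching Kap1 was 3.79%, a ratio of 2.45. In bins rich in Kap1 and poor in Setdb1, 84 of the 342 Setdb1 peaks were shared, 24.6% (20.3 to 29.4), against 5.72% of bases, a ratio of 4.29. There, 21.6% of Setdb1 peaks had a second copy, against 0.984% of all binned Setdb1 peaks. In the 31 bins rich in Setdb1 and poor in Kap1, 0 of 1079 were shared (Wilson upper limit 0.355%, while 3 counts of the total would be 0.278%), and 0.0674% of bases would touch Kap1, so that at these counts the absence of shared sites could not be told from the share of bases.

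By family, 17 of 259 Setdb1 peaks in zinc finger genes were shared, 6.56% (4.14 to 10.3), 11 of 194 in olfactory receptor genes, 5.67% (3.20 to 9.87), and 5 of 63 in V1R genes, 7.94% (3.44 to 17.3). In potassium channel genes it was 0 of 241, and in solute carrier genes 4 of 394, 1.02% (0.40 to 2.58). Setdb1 stood at its mean in zinc finger genes as a whole, and the interval for its peaks that coincided with Kap1 there lay above the 2.08% of all. Kap1 was itself denser there, which raises the bases that can be shared, and the part of this in the difference was not tested. Other shared sites at genes were picked from the same ranking by midpoint distance after their values were seen, and some ranks were passed over. Start sites among them were those of the olfactory receptor gene Olfr429 (chr1:174088697-174088896) and of Psg16 (chr7:17078772-17078971), a pregnancy-specific glycoprotein gene. Coding exons were those of the zinc finger gene Zfp513 (chr5:31200381-31200580) and the calcium release channel gene Ryr2 (chr13:11598470-11598669). Another coding exon was that of Yap1 (chr9:7934574-7934773), the coactivator of the Hippo pathway that controls liver size.

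Sharing also differed with the kind of peak. Of the 47906 Setdb1 peaks of the commonest width 1.63% were shared, and of the 1365 others 17.9% (15.9 to 19.997). A wider peak has more bases to share. Of 491 Setdb1 peaks with a second copy 15.5% (12.5 to 18.9) were shared, and of the 48780 others 1.95%. H3K14ac, the acetyl mark of the series, was found at 151 of the 1027 shared peaks, 14.7% (12.7 to 17.0), against 0.986% of all Setdb1 and 4.33% of all Kap1 peaks. The part of wide and repeated sites in this overlap was not tested beyond the values above. Shared sites were also richer in GC, with 47.5% in their central 150 bp against 44.2% in all Setdb1 peaks, and 7.79% of them held at least 5 CpG against 3.50%.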

How the data were processed

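Chromatin of young and old C57BL/6 livers was immunoprecipitated with antibodies to Setdb1 or Kap1 and sequenced. The authors mapped reads to mm10 with BWA, discarded duplicates and reads without a unique place, and pooled the livers of each age before calling peaks over input with PeakSeq. The deposited lists give positions only, with no score, height or count per peak, so that depth is unknown, and 1 pooled list per factor and age leaves no replicates. Lists were used as deposited, on chromosomes 1 to 19, and 0 columns of other series were present.

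Genome sequence was GRCm38.p6 and genes were those of GENCODE M21 basic. Peaks were assigned by midpoint. Bins of 1 Mb needed 500 kb of called bases. Start sites were windows of 1 kb on either side. Densities are per Mb of called bases or merged gene bodies. Distances run between nearest edges, and 0 means a shared base. A second copy was an alignment by minimap2 2.31 elsewhere in the genome over at least 90% of the length at 95% identity or more (central 500 bp of wide peaks). Intervals are at 95%. Overlap code was tested on simulated data. Values were computed in Python 3.11.15 (numpy 2.4.6, scipy 1.17.1) and plotted in matplotlib 3.10.9.

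The named items were the 5 bins per direction with the largest density difference, with up to 3 genes each, the 8 genes per factor with most peaks per 10 kb (body of at least 5 kb, at least 5 peaks), the 6 densest families per factor among those with at least 8 genes, the genes of the factors and the liver genes with both. Of these, 1 gene is not reported here. Ppargc1a, Hdac3 and the further shared sites were chosen after their values were seen. The question, the families and the rules were chosen with earlier results of these data known. Alternatives (among them those without second copies, without chromosome 19 and with fully called bins only, chosen after seeing the data) changed bin size, limits, widths, windows, flanks, merging and copies. Lists of other marks and sequential precipitations were not analysed here, except for H3K14ac.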

Additional observations from a re-analysis of the deposited data

How the results depend on the processing

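Over 22 results and 108 alternatives, 82 values stayed within tolerance and 26 moved. The tolerance was the 95% counting interval for shares and densities, 1.5 times for numbers of bins, the Fisher z interval for rho and the order-statistic interval for the median distance, the last 2 treating bins and peaks as independent. Without chromosome 19 the ratios in cytochrome P450 genes were 0.87 for Setdb1 and 0.998 for Kap1, on the other side of the mean from the reported values. No other density that moved changed its side. The Setdb1 ratio in defensin genes, on 4 peaks, was between 0.46 and 1.04. Spearman's rho over bins was between 0.27 and 0.32 under 8 alternatives. Bins of 500 kb, of which there are about as many again, gave 92 bins rich in Kap1 and poor in Setdb1 and 72 the reverse. A start site window of 5 kb gave 17.2% of Setdb1 and 23.3% of Kap1 peaks at start sites, and 0.997% and 1.58% in coding exons. The Kap1 share at start sites was 6.08% with commonest widths only, 6.16% with peaks within 1000 bp merged and 6.05% without second copies, and the Kap1 ratio in zinc finger genes was 1.36, 1.42 and 1.54. Merging gave 5.26 for Kap1 in defensin genes, and flanks of 5 kb gave 1.48 for Setdb1 in V1R genes. With commonest widths only, 1.40% of Setdb1 peaks shared a base with Kap1, 5.82% were within 1000 bp and the median distance was 26389 bp. Without peaks on H3K14ac these were 1.77%, 6.34% and 26048 bp, and without second copies 1.91%, 6.54% and 26025 bp. From midpoint to midpoint, 6.08% were within 1000 bp.

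Zinc finger genes defined by their protein sequence were not run. No paired analysis was possible because each factor is 1 pooled list per age. Without peak heights, a weak and a strong site count alike, and the numbers of peaks depend on depth and antibody as well as on binding. The excess of Setdb1 on chromosome 19 cannot be told apart from a property of the list. Peaks in repeats are limited to uniquely mapped reads.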

Other observations

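Kap1 peaks lay nearer to H3K14ac peaks than Setdb1 peaks did. The median distance to the nearest H3K14ac peak was 33491 bp from Kap1 and 81593 bp from Setdb1, and 9.29% of Kap1 and 2.44% of Setdb1 peaks were within 1000 bp of it.

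Young Setdb1 peaks were also set against the old Kap1 list. There were 530 pairs with midpoints within 200 bp, 1.93 times the median of 275 in the further classes, and 1.13% of young Setdb1 peaks shared a base with old Kap1.

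Near-identical second copies were less frequent under both factors than in the genome. Reads without a unique place were discarded before peaks were called, which lowers these shares by construction. Most Setdb1 peaks are also longer than the windows of the genome. The comparison therefore says nothing about binding. They were found for 0.997% of Setdb1 peaks (0.913 to 1.09) and 5.97% of Kap1 peaks (5.76 to 6.19), against 9.82% of 150 bp windows placed every 50 kb.

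The share of chromosome 19 varied along the Setdb1 lists. When the autosomal peaks were cut, in deposited order, into 10 successive parts of equal size, chromosome 19 made up between 1.36% and 7.85% of each part of the young Setdb1 list and between 2.04% and 3.31% of each part of the young Kap1 list. At 21 months the ranges were 1.39% to 4.17% for Setdb1, in parts of about 1368 peaks, and 1.96% to 3.23% for Kap1. Of the 58 bins of chromosome 19, 30 were among the 264 richest in Setdb1, and 7 among the 242 richest in Kap1.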
